A study of Mus musculus with 16 samples.

Results

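The genes described here are 10 transcription factors of the AP-1, BATF and IRF4 group in mouse CD8+ T cells, namely Fos, Fosb, Fosl2, Jun, Junb, Jund, Batf, Batf3, Irf4 and Atf2. They were found by their GENCODE M21 symbols, and all 10 were among the 55536 annotated genes and among the 16650 genes with enough counts to be tested. CD8+ T cells of OT-I mice (OT-1 Tg C57BL/6J), whose transgenic receptor recognises the ovalbumin peptide SIINFEKL, were electroporated with Cas9 and either a control guide RNA (Control gRNA, a scrambled guide) or a guide against Tardbp (Tardbp gRNA). Tardbp encodes TDP-43, a protein that binds UG-rich RNA and takes part in splicing and 3′ end choice. Both groups were moved into C57BL/6J recipients that were then given SIINFEKL with the agonist antibodies anti-OX40 and anti-41BB. The OT-I cells were sorted again from spleen and lymph nodes, days after these injections, and the sources differ on the exact time. The study's text also mentions a stimulation of the purified cells alongside the sequencing. Its methods do not say whether that came before the RNA was taken. Each group had 8 libraries, one from each of 8 recipient mice by the study's text, and the edited cells were an electroporated pool, not a clone.

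AP-1 is not a single protein but a set of dimers. FOS proteins (Fos, Fosb, Fosl2) bind DNA only with a partner, JUN proteins (Jun, Junb, Jund) pair with FOS proteins, with each other or with BATF proteins, and ATF2 pairs with itself or with JUN and prefers the cyclic AMP response element (CRE). BATF and BATF3 are small leucine zipper proteins without a transactivation domain. With a JUN partner they recruit IRF4 to composite sites, and in CD8+ T cells IRF4 and BATF are known to be needed for the growth and differentiation that follow the T cell receptor. Fos, Fosb, Jun and Junb are immediate early genes, whose RNA rises and decays fast after stimulation.

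The start regions of 4 of the 5 members that passed the test of the next paragraphs are printed so that their sequence can be set beside their values. These bases lie before the RefSeq start (GRCm38.p6) and outside every GENCODE exon, and run 5′ to 3′ on the gene's strand, with matches to the searched motifs in capitals. The Fos and Atf2 windows end at the start itself, the Irf4 window 7 bases and the Batf3 window 89 bases before it.
Fos, chr12:85473730-85473889, plus strand: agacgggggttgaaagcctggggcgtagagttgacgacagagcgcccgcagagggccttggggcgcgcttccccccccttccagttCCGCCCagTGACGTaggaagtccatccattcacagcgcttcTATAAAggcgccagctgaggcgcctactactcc
Batf3, chr1:191098254-191098324, plus strand: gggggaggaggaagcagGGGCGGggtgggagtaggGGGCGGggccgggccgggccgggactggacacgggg
Irf4, chr13:30749073-30749225, plus strand: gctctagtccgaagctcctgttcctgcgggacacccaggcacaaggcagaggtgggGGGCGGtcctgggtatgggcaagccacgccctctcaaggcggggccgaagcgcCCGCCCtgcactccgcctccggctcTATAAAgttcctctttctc
Atf2, chr2:73892640-73892799, minus strand: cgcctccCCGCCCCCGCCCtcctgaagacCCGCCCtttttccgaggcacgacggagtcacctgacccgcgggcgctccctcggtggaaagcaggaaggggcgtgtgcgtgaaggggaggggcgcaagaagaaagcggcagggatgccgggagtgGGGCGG
The fifth, Jund, has a RefSeq start 1210 bases upstream of its GENCODE start, so its window is not shown.

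Motifs were searched on both strands in the 250 bases before the RefSeq start of all 32851 promoters, all 10 members included. The Jund window lies before a start 1210 bases upstream of its GENCODE start. GENCODE exons cover all 250 bases of the Fosl2 window and 163 of the Batf3 window. The counts below are therefore of windows, and a motif missing from the Jund window may lie nearer its GENCODE start. The AP-1 element TGANTCA was in 0 of 10 members and in 6.75% of all promoters. The CRE core TGACGT, which the whole CRE TGACGTCA contains, was in the windows of Fos and Batf and in 6.47% of all, while the whole CRE was in no member and in 1.55% of all. The GC box GGGCGG was in the windows of 8 of 10 members, in all but those of Junb and Jund, against 32.7% of all promoters. The TATA box TATAAA was in Fos and Irf4 (12.4% of all), CCAAT in Jun, Junb and Atf2 (33.8%), and the interferon response core in Fosl2 (2.98%). In Fos the CRE core lay 66 to 61 bases and the TATA box 33 to 28 bases before the start. These are matches of letters, not mapped binding sites. Only the patterns as written were searched. TGACATCA, close in letters to the whole CRE and present in the Jun window, matches none of them and was not counted.

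Estimated counts summed to between 73649630 and 93893357 for a Control library and between 56016533 and 94801105 for a Tardbp library. The RNA concentration before dilution, deposited with no unit, ran from 34.9 to 197.1 for Control and from 10.1 to 24 for Tardbp libraries, without overlap, so the guide and the amount of RNA cannot be told apart. Tardbp itself, the check of the labels, had 172 to 207 CPM (counts scaled to library size in edgeR, with TMM factors) in Control and 110 to 147 CPM in Tardbp gRNA, without overlap. The CD8 T cell markers were all present, with a summed level of 6635 to 7932 CPM in Control and 9311 to 12174 CPM in Tardbp gRNA, and Cd4 was at most 0.601 CPM in any library. Myeloid markers summed to 14.8 to 36.8 CPM in Control and 19.3 to 80.2 CPM in Tardbp gRNA, with 2 of 6 tested genes called, and red cell markers to 0.442 to 17.4 and 9.02 to 181 CPM, with 4 of 4 tested genes called. In dendritic cells, which also use Batf3 and Irf4, the 7 markers summed to 18.9 to 36.9 CPM and 28.7 to 40.7 CPM, mostly Itgax, and 1 of the 4 tested, Zbtb46, was called (means of 2.08 and 3.82 CPM, log2 fold change 0.88, edgeR adjusted p 0.00212). Xcr1 ran from 1.62 to 4.8 CPM over all libraries, while Clec9a was at most 0.267 CPM and Siglech at most 0.0815 CPM. B cell markers summed to 6.85 to 13.1 and 7.28 to 18.7 CPM, natural killer markers to 12.6 to 63.4 and 36.9 to 101 CPM (mostly Eomes, which was the 1 of 3 called, with a log2 fold change of 1.06 and an edgeR adjusted p of 0.0191), plasma cell markers to 143 to 166 and 118 to 163 CPM (mostly Xbp1) and CD4 T cell markers to 4.39 to 20.7 and 6.15 to 15.6 CPM. The other natural killer markers, Ncr1 and Klrb1c, had means of 0.774 and 0.723 CPM in Control and 1.14 and 1.32 CPM in Tardbp gRNA. Neither was called (edgeR adjusted p 0.353 and 0.0828), so that sum rests on Eomes. Whether cells of these other types had a part in the results below was not tested.

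To ask which of the factors differ between the groups, edgeR's quasi-likelihood test was run on all genes and genes under 0.05 after Benjamini-Hochberg adjustment were called. Of the 10 members, 5 were called, with Fos and Jund higher and Batf3, Irf4 and Atf2 lower in Tardbp gRNA, while 46.7% of all tested genes were called. The median log2 fold change (Tardbp gRNA over Control gRNA) was -0.20 over the members and 0.05 over all tested genes. The share of members called was near that of all genes. Batf3 was the single member whose groups did not overlap, as was true of 16.9% of all tested genes. Because libraries numbered 1 to 3 stood apart from those numbered 4 to 8 in an earlier analysis of these data, a division that no label explains, both sets were also tested alone. In bulk RNA, fewer cells that carry an RNA and less RNA per cell cannot be told apart.

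**Figure D1:**
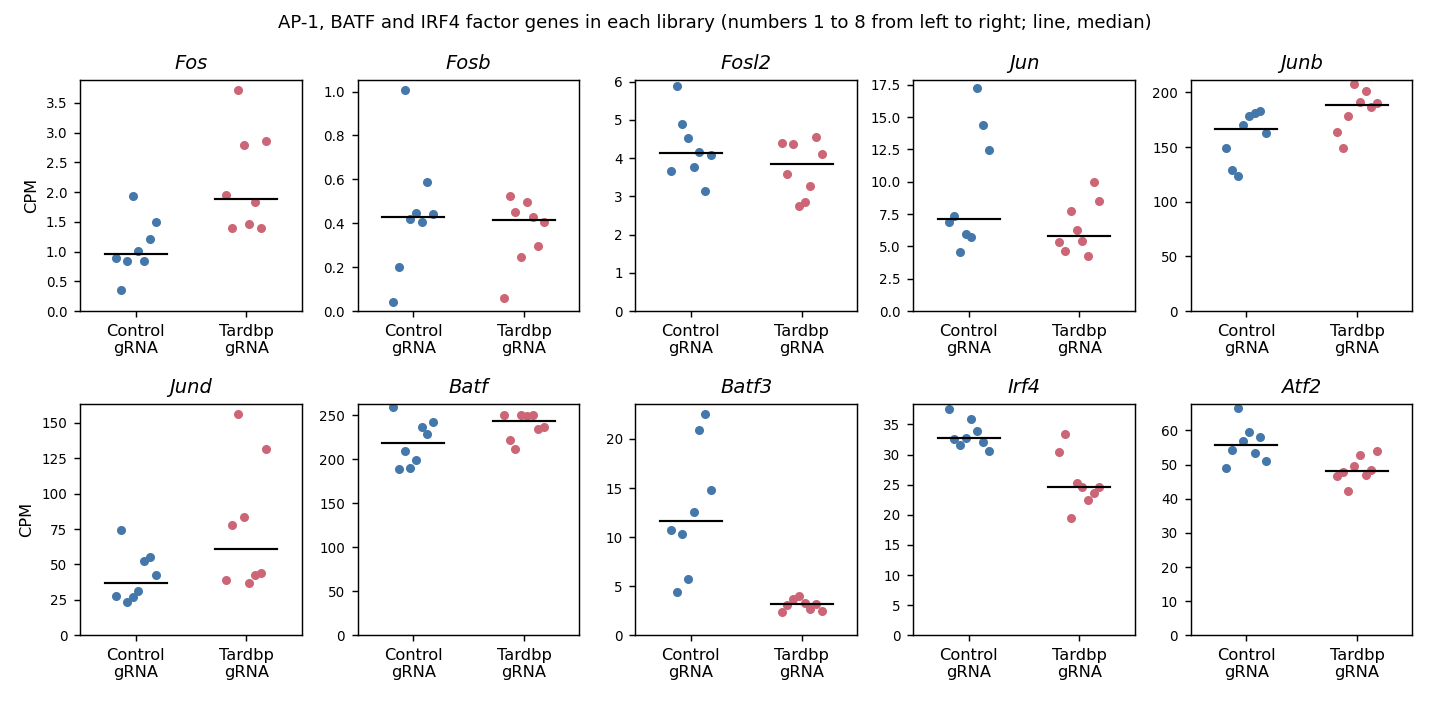
CPM of each member (y axis, linear from 0) in each of the 8 Control gRNA (blue) and 8 Tardbp gRNA (red) libraries; points are libraries, numbers 1 to 8 from left to right, and lines are group medians. Batf3 fell in every Tardbp library below the lowest Control library (4.45 CPM), 7 of 8 Irf4 values lay below every Control value, and Jun was high in Control libraries 6, 7 and 8.

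Batf3 showed the widest difference of the group. Batf3 (ENSMUSG00000026630.9, chr1:191097847-191108945, plus strand) encodes a partner of JUN that marks early effector T cells and is best known for the cross-presenting dendritic cell lineage. It had 4.45, 11.7 and 22.5 CPM (lowest, median and highest of 8 libraries) in Control gRNA and 2.37, 3.15 and 4.03 CPM in Tardbp gRNA. The groups did not overlap, and the Control libraries themselves spread widely, with numbers 6 to 8 at 14.8 to 22.5 CPM and numbers 2 and 4 at 4.45 and 5.74 CPM. The Tardbp mean, 3.10 ± 0.576 CPM (SD, n = 8), was 24.3% of the Control mean of 12.8 ± 6.50 CPM (SD, n = 8). On the log2 scale Batf3 was changed by -2.04 (SE 0.275, edgeR adjusted p 8.04e-06), and 29 called genes, Batf3 included, had a log2 fold change that low. It was called under all 27 other settings of the test, at -1.50 (edgeR adjusted p 0.0314) within libraries 1 to 3 and at -2.29 (edgeR adjusted p 8.97e-05) within libraries 4 to 8. With RNA concentration (log2) in the model it was -1.89 (SE 0.532, edgeR adjusted p 0.0223), and it was then the only member called. RNA concentration did not overlap between the groups, so this model separates it poorly from the guide. A call lost in this model, here or below, does not show a smaller difference.

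The loss of Batf3 RNA was seen in its coding transcript. Of 47 annotated transcripts of the 10 genes, 28 had enough counts to be tested and 4 were called, while 16.6% of all tested transcripts were called. Batf3-201, the coding transcript, had 4.03, 10.3 and 21.5 CPM in Control gRNA and 1.78, 2.53 and 3.46 CPM in Tardbp gRNA, again without overlap, or -2.16 on the log2 scale (SE 0.317, edgeR adjusted p 0.000168). Batf3-204, a processed transcript without a reading frame, fell alike, from a median of 0.955 to 0.319 CPM (log2 fold change -2.15, edgeR adjusted p 0.0182), although its groups overlapped and it was not called with the replicate block (edgeR adjusted p 0.0771). Of the counts of all annotated Batf3 transcripts, Batf3-201 held 0.857 ± 0.0481 in Control gRNA and 0.821 ± 0.0596 in Tardbp gRNA (SD, n = 8 each). The difference was -0.036 (limma adjusted p 0.552), and no shift between Batf3 transcripts was shown. The single listed Batf3 exon node had a Psi (the share of reads that include it) of 0.975 and 0.969.

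Batf, the partner most abundant in these cells, differed little. Batf (ENSMUSG00000034266.6, chr12:85686669-85709087, plus strand) had 189, 219 and 259 CPM in Control gRNA and 211, 243 and 250 CPM in Tardbp gRNA. The Tardbp values all lay inside the Control range, and 7 of 8 were above the Control median. The log2 fold change of 0.12 (SE 0.065) had an edgeR adjusted p of 0.147, and was 0.06 without Control library 4 and 0.03 within libraries 1 to 3. It was called when libraries were scaled by their totals alone (0.19, edgeR adjusted p 0.0201) or by the upper quartile (0.19, edgeR adjusted p 0.0333), settings under which the median of all genes was 0.12 in both cases against 0.05 with TMM. A retained-intron transcript, Batf-202, rose from 0.845, 2.09 and 2.94 CPM to 2.58, 4.03 and 5.24 CPM (log2 fold change 0.94, SE 0.229, edgeR adjusted p 0.00914). Its share of Batf counts stayed small, at 0.00971 ± 0.00357 in Control and 0.0175 ± 0.00473 in Tardbp gRNA (SD, n = 8 each), and the difference of 0.0078 had a limma adjusted p of 0.0520, with the coding Batf-201 holding the rest.

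Irf4, which BATF and JUN dimers bring to composite sites, was lower. Irf4 (ENSMUSG00000021356.10, chr13:30749226-30766976, plus strand) had 30.7, 32.7 and 37.5 CPM in Control gRNA and 19.5, 24.6 and 33.4 CPM in Tardbp gRNA. The Control libraries were close together, with an SD of 2.29 CPM around a mean of 33.4, and only Tardbp library 2 reached into their range. The Tardbp mean of 25.5 ± 4.43 CPM (SD, n = 8) was 76.4% of the Control mean, or -0.39 on the log2 scale (SE 0.0893, edgeR adjusted p 0.00152). It was called within libraries 4 to 8 (-0.46, edgeR adjusted p 0.000112), and was -0.31 (edgeR adjusted p 0.358) within libraries 1 to 3 and -0.42 (edgeR adjusted p 0.157) with RNA concentration (log2) in the model.

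The 2 main Irf4 transcripts differ by 3 bases at a tandem acceptor (chr13:30753445-30753447), which changes the protein by a single residue. They are printed with the 3 extra bases in capitals, because the splicing table lists this choice as a node of its own.
Irf4-201: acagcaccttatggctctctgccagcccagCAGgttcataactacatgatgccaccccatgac
Irf4-202: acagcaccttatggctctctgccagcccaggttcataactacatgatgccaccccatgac
Irf4-201, the longer form, had 14.8, 18 and 26.1 CPM in Control gRNA and 8.22, 11.4 and 17.8 CPM in Tardbp gRNA, and fell by 0.62 on the log2 scale (SE 0.161, edgeR adjusted p 0.0130). Irf4-202 had 5.22, 16.3 and 21.7 CPM and 0.730, 14.7 and 19.6 CPM, or -0.23 on the log2 scale (SE 0.430, edgeR adjusted p 0.790). The share of Irf4-201 among Irf4 counts was 0.550 ± 0.132 and 0.497 ± 0.204 (SD, n = 8 each), a difference smaller than either spread (limma adjusted p 0.830). The deposited Psi of the 3-base node was 0.559 in Control and 0.491 in Tardbp gRNA, and the other 7 listed Irf4 nodes lay between 0.962 and 0.983 in both groups. A difference in the use of the acceptor was therefore not shown.

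The FOS genes were the rarest of the set, and Fos alone among them was called. Fos (ENSMUSG00000021250.13, chr12:85473890-85477273, plus strand), the classic partner of JUN after receptor signals, had 0.348, 0.956 and 1.93 CPM in Control gRNA and 1.39, 1.89 and 3.72 CPM in Tardbp gRNA. All 8 Tardbp libraries were above the Control median and 4 above the highest Control library, numbers 3, 8 and 4 being the highest. The log2 fold change was 1.02 (SE 0.289, edgeR adjusted p 0.00746), on counts of 26 to 297 per library. Within libraries 1 to 3 it was 1.72 (edgeR adjusted p 0.0556), within libraries 4 to 8 0.67 (edgeR adjusted p 0.0776), and with RNA concentration (log2) in the model 1.10 (edgeR adjusted p 0.237). Its main transcript, Fos-201, gave 0.99 (edgeR adjusted p 0.0519), so the call held at the gene and not at the transcript.

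Fosl2 (ENSMUSG00000029135.10, chr5:32135801-32157842, plus strand), a FOS protein with slower kinetics, had 3.13, 4.13 and 5.89 CPM in Control gRNA and 2.74, 3.85 and 4.56 CPM in Tardbp gRNA. The groups overlapped, with Tardbp libraries 4 and 5 below every Control library, and the log2 fold change was -0.19 (SE 0.140, edgeR adjusted p 0.279), or -0.11 without Control library 2. Fosb (ENSMUSG00000003545.3, chr7:19302696-19310051, minus strand) was near the limit of detection, at 0.0426, 0.429 and 1.01 CPM in Control gRNA and 0.0608, 0.417 and 0.524 CPM, on 3 to 82 counts per library. Its log2 fold change was -0.29 (SE 0.455, edgeR adjusted p 0.631), less than its standard error. It was -0.0042 without Control library 3, -0.47 without Control library 1, -0.15 without Tardbp library 1 and -1.63 with RNA concentration (log2) in the model (edgeR adjusted p 0.220), so no size can be given for it.

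The make-up of Fosb RNA was compared too, on these low counts, and no difference in it was called with all libraries. The coding transcript Fosb-201 held 0.211 ± 0.332 of the Fosb counts in Control gRNA and 0.636 ± 0.262 in Tardbp gRNA (SD, n = 8 each). The retained-intron transcript Fosb-204 held the rest. In counts, Fosb-201 was at 0 in Control libraries 1, 2, 6 and 7 and at 9 to 32 in the other Control libraries, against 5 to 31 in Tardbp gRNA. The widest Psi difference of the 7 listed Fosb nodes, all of them start or end nodes, was 0.0224 in size. The difference in share was 0.426 (SE 0.147, limma adjusted p 0.131). It was called when Control library 4 was left out, at 0.534 (limma adjusted p 0.0151), and that library alone held 32 counts of Fosb-201 against 1 of Fosb-204. Across the members, 0 of 24 tested transcript shares were called, against 0.635% of all tested shares. Of the 24, 6 had an unadjusted limma p under 0.05, and the 2 of Fosb among them also differed by more than 0.1. The 2 shares of Fosb mirror each other, as do the 2 of Batf among the 6, so each of these pairs is 1 comparison.

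Among the JUN genes Jund was higher, Junb lay at the edge of the threshold and Jun was not called. Jund (ENSMUSG00000071076.6, chr8:70698949-70700616, plus strand), the most steadily expressed JUN protein in resting cells, had 23.5, 36.9 and 74.6 CPM in Control gRNA and 37.3, 60.8 and 156 CPM in Tardbp gRNA. All 8 Tardbp libraries were above the Control median, yet the groups overlapped, with Tardbp libraries 3 and 8 at 156 and 131 CPM and Control library 2 at 74.6 CPM. The log2 fold change was 0.87 (SE 0.323, edgeR adjusted p 0.0341). It was lost with limma-voom (adjusted p 0.0579), without a filter on low counts (edgeR adjusted p 0.0596), with RNA concentration (log2) in the model, where the value was 1.48 (edgeR adjusted p 0.157), with the replicate block (edgeR adjusted p 0.0842), within libraries 1 to 3 (0.254) and 4 to 8 (0.123) in edgeR, and when any one of 8 libraries was left out, Control 1, 3, 4, 5 and 8 and Tardbp 3, 4 and 8, where the edgeR adjusted p lay between 0.0603 (Control 8) and 0.0988 (Tardbp 8). The single Jund transcript had an edgeR adjusted p of 0.122. An antisense gene, Gm11175, overlaps Jund and was at most 0.157 CPM in any library.

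Junb (ENSMUSG00000052837.6, chr8:84974484-84978718, minus strand), which pairs with BATF in activated T cells, had 124, 166 and 183 CPM in Control gRNA and 149, 189 and 207 CPM in Tardbp gRNA. The Control values of libraries 1 to 3 (124 to 149 CPM) lay below those of libraries 4 to 8 (163 to 183 CPM), and 5 Tardbp libraries exceeded every Control library. The log2 fold change was 0.20 (SE 0.0869, edgeR adjusted p 0.0660). With libraries 1 to 3 and 4 to 8 as a block it was 0.21 (edgeR adjusted p 0.00212), and within libraries 4 to 8 0.15 (edgeR adjusted p 0.0162). It was also called with the replicate block (edgeR adjusted p 0.00739), with library totals alone (0.27, edgeR adjusted p 0.0163) and with upper-quartile scaling (0.27, edgeR adjusted p 0.0171), whereas with RNA concentration (log2) in the model it was 0.43 (edgeR adjusted p 0.119). Leaving out a library gave the call without Control library 6 (edgeR adjusted p 0.0471), Control library 7 (0.0431) or Tardbp library 2 (0.0278). Prdx2, on the opposite strand, overlaps the annotated span of Junb and did not pass the test (log2 fold change 0.01).

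Jun (ENSMUSG00000052684.4, chr4:95049034-95052222, minus strand), the founding member of the family and a target of JNK, had 4.6, 7.12 and 17.2 CPM in Control gRNA and 4.29, 5.84 and 9.98 CPM in Tardbp gRNA. Control libraries 6, 7 and 8 stood high, at 17.2, 14.4 and 12.5 CPM, while the other 5 were between 4.6 and 7.35 CPM. The log2 fold change was -0.52 (SE 0.265, edgeR adjusted p 0.118). It was -0.33 without Control library 6, -0.13 within libraries 1 to 3 and -0.16 with RNA concentration (log2) in the model. Control libraries 6, 7 and 8 were also the highest for Batf3.

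**Figure D2:**
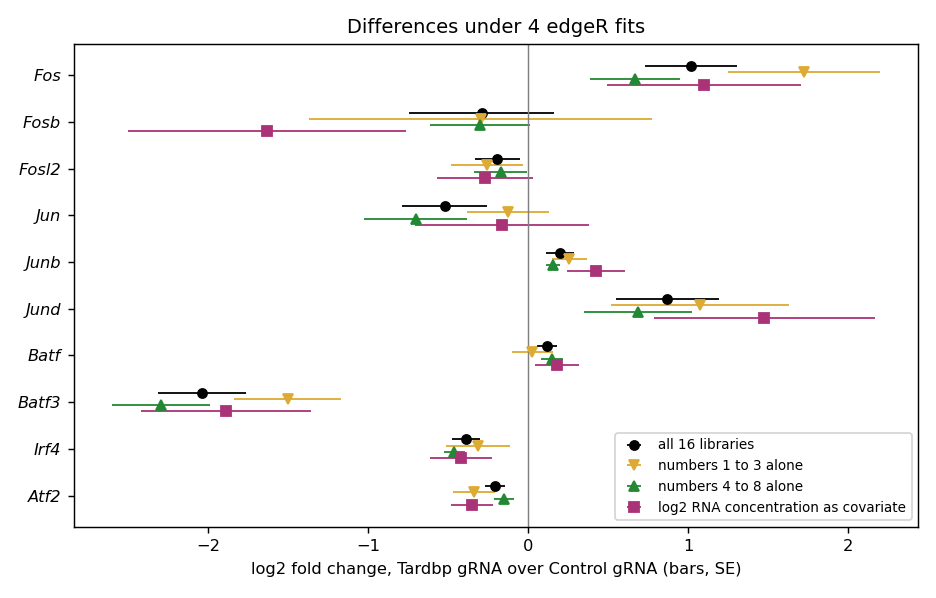
log2 fold change (x axis) of each member with its SE under 4 edgeR fits, namely all 16 libraries, libraries 1 to 3, libraries 4 to 8, and all libraries with RNA concentration (log2) in the model. Every member kept its sign in all 4, and Batf3 lay farthest below 0, at -2.04 with all libraries.

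Atf2 was slightly lower at the gene. Atf2 (ENSMUSG00000027104.18, chr2:73816509-73892639, minus strand) encodes a CRE-binding partner of JUN that is switched on by the stress kinases JNK and p38. It had 48.9, 55.7 and 66.5 CPM in Control gRNA and 42.3, 48.2 and 54.0 CPM in Tardbp gRNA. All 8 Tardbp libraries lay below the Control median and 5 below every Control library. The Tardbp mean was 86.7% of the Control mean, or -0.21 on the log2 scale (SE 0.0635, edgeR adjusted p 0.0125). The call was lost with library totals alone (-0.14, edgeR adjusted p 0.0803), with upper-quartile scaling (-0.13, edgeR adjusted p 0.0796), with RNA concentration (log2) in the model (-0.35, edgeR adjusted p 0.0797) and within either set of libraries, at -0.34 (edgeR adjusted p 0.136) for 1 to 3 and -0.15 (edgeR adjusted p 0.0682) for 4 to 8.

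Atf2 has 19 annotated transcripts, 13 of which were tested and none of which was called. Their log2 fold changes ran from -0.96 for Atf2-202 to 1.15 for Atf2-217, a minor processed transcript whose edgeR adjusted p of 0.0797 was the lowest. The counts were divided among the coding transcripts very unevenly from library to library. Atf2-202 had 0, 15.1 and 28 CPM in Control gRNA and 0, 4.09 and 17.9 CPM in Tardbp gRNA, and Atf2-204 had 0.418, 1.5 and 27.7 CPM against 0.58, 2 and 31.8 CPM. The share of Atf2-202 was 0.260 ± 0.156 and 0.158 ± 0.149 (SD, n = 8 each), the widest difference of the 13 at -0.10, with a limma adjusted p of 0.553. With spreads of that width between libraries of the same group, a difference of this size in Atf2 transcript use was not detectable here.

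The deposited splicing table gives 1 Psi for each group, in columns headed only A and B. A was read as Control gRNA from the study's text and from a Tardbp exon (chr4:148619184-148619354) with values of 0.999 in A and 0.831 in B, where inclusion rebuilt from transcript counts was 1 in every Control library and 0.523 to 0.907 in Tardbp libraries. Every Psi direction rests on this reading. The Psi used here come with no spread between libraries and were not tested here. The study filtered its events by a probability from Whippet, the splicing program. It names Atf2 among the genes with events that it found to depend on costimulation and Tardbp. Of 44 listed nodes in 7 of the 10 genes, 2 differed by more than 0.1, both at the 3′ end of Atf2, while 4.7% of all listed nodes differed by that much (21.5% of tandem 3′ end nodes and 0.932% of core exons). The node chr2:73818266-73819148, which holds the stop codon and the first stretch of the 3′ end, went from 0.178 in Control to 0.0481 in Tardbp gRNA. The most distal node, the last 15 bases of the gene (chr2:73816509-73816523), went from 0.175 to 0.345. The long stretch between them (chr2:73816524-73818265, 1742 bases) had the highest value of the 3 nodes and changed little, from 0.648 to 0.608. The next widest were coding exons, with 0.850 and 0.773 for chr2:73846197-73846375, 0.843 and 0.774 for chr2:73845439-73845553, and 0.731 and 0.798 for chr2:73853795-73853891.

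The long node carries a run of UG repeats, the kind of sequence that TDP-43 is known to bind, and a stretch of it is printed with the start of the run in capitals, as DNA letters on the transcript's strand.
Atf2, chr2:73817764-73817793, minus strand: tgagtatgtgtaTGTGTGTGTGTGTGTGTG
The whole run is 46 bases long (chr2:73817736-73817781) and lies 1212 bases before the distal node. TGTGTG was found at 26 overlapping positions in the long node and at 0 in the other 2 last-exon nodes. Of 680 tandem 3′ end nodes of 1500 to 2000 bases, 65.2% held TGTGTG at least once, so its presence is common at that length, and 4.71% held a TG run of 20 bases or more. No binding was measured here.

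Transcript counts give a value for every library, unlike the Psi. The share of Atf2 transcripts that end in the first of the 3 nodes, rebuilt from annotated ends, was 0.163 ± 0.104 in Control and 0.194 ± 0.165 in Tardbp gRNA (SD, n = 8 each), a difference of 0.031 (limma adjusted p 0.930), opposite in sign to the Psi. For the most distal node it was 0.797 ± 0.114 and 0.763 ± 0.161 (limma adjusted p 0.923). The 2 measures were far apart within Control gRNA, where the long node had a rebuilt share of 0.0406 and a Psi of 0.648. The distal node had 0.797 and 0.175. The rebuilt share therefore cannot check the Psi, in size or in sign. The 3 last-exon nodes and the 6 first-exon nodes of Atf2 were tested in this way, the latter by annotated starts, and 0 of the 9 were called and 0 had an unadjusted limma p under 0.05, against 0.444% called among all first-exon and last-exon nodes. Inclusion rebuilt for 8 Atf2 nodes and the Irf4 acceptor likewise gave 0 calls of 9 and 0 with an unadjusted p under 0.05, against 0.237% of all nodes. For the exon at chr2:73846197-73846375 it was 0.790 ± 0.156 and 0.799 ± 0.120 (SD, n = 8 each).

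**Figure D3:**
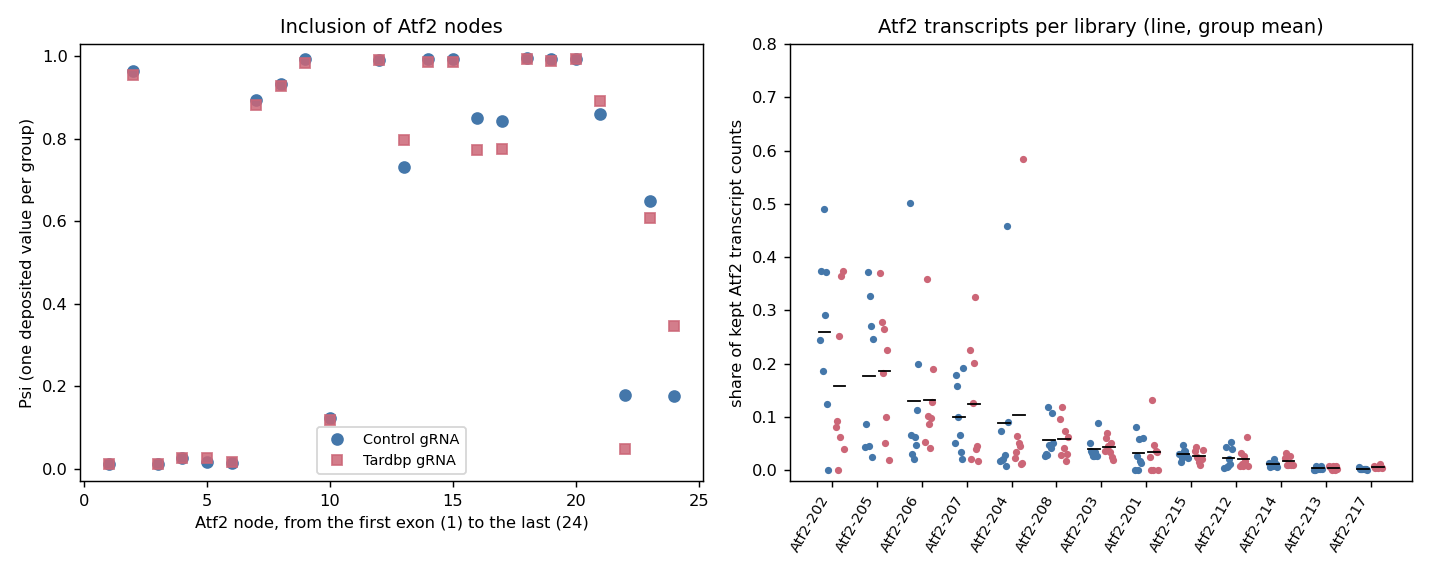
Left, deposited Psi (y axis, 1 value per group) of the listed Atf2 nodes in transcript order (x axis). Right, share of each tested Atf2 transcript in the counts of all annotated Atf2 transcripts (y axis, headed kept counts) in each library, with lines at group means. The last nodes separate, with node 22 at 0.178 and 0.0481 and node 24 at 0.175 and 0.345, while the transcript shares overlap throughout.

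Levels can be compared between genes only per length, for which TPM were computed from transcript counts and annotated lengths. Batf led with 380 ± 39.6 TPM in Control and 398 ± 22 TPM in Tardbp gRNA (SD, n = 8 each), followed by Junb with 145 ± 21.8 and 160 ± 14.1 TPM. Jund had 41.5 ± 18.3 and 72.2 ± 43.0 TPM, Atf2 28.2 ± 3.60 and 24.4 ± 2.86 TPM, Batf3 25.7 ± 13.4 and 5.97 ± 1.08 TPM, and Irf4 11.8 ± 0.783 and 8.76 ± 1.60 TPM. In Control gRNA the order of Jund, Atf2 and Batf3 was within their spread, whereas in Tardbp gRNA the mean of Batf3 lay below that of Irf4, with ranges that touched. Jun (4.83 ± 2.47 and 3.22 ± 0.999 TPM), Fosl2 (1.2 ± 0.214 and 0.978 ± 0.231 TPM), Fos (0.924 ± 0.364 and 1.74 ± 0.604 TPM) and Fosb (0.201 ± 0.129 and 0.154 ± 0.0666 TPM) made up the lower end, and the means of Fos and Fosl2 changed order between the groups.

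Within the summed TPM of the 8 genes whose products form AP-1 or BATF dimers, Batf and Junb dominated in every library. The sum was 600 ± 65.2 TPM in Control and 642 ± 32.9 TPM in Tardbp gRNA (SD, n = 8 each). Batf held 58.7 to 70.2% of it in Control and 52.8 to 68.8% in Tardbp gRNA, and Junb 21.2 to 29.3% and 22.2 to 27.2%. Batf3 held 1.68 to 6.89% in Control and 0.678 to 1.11% in Tardbp gRNA, without overlap. The 3 FOS genes together were under 1% in every library, with Fos at a median of 0.15% in Control and 0.246% in Tardbp gRNA.

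**Figure D4:**
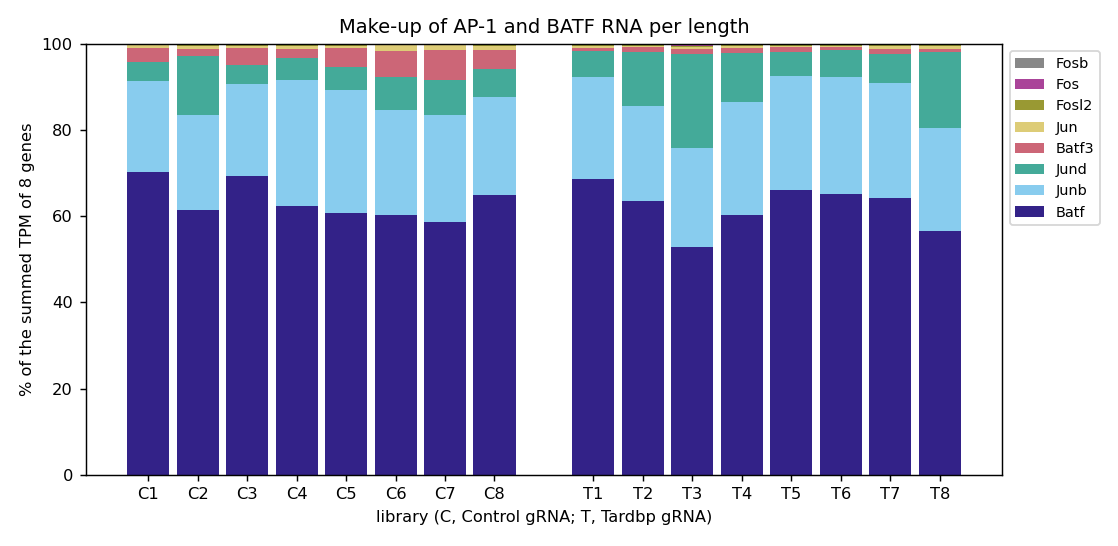
Percent of the summed TPM of 8 AP-1 and BATF genes (y axis, stacked to 100%) in each library (x axis). Batf and Junb fill most of every bar, Jund is widest in T3 at 21.9%, and Batf3 is a visible band in the Control libraries and at most 1.11% in the Tardbp libraries.

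Genes around the factors were described by list, and each count is to be read against the 46.7% of all tested genes that were called, 3906 higher and 3877 lower. A list of genes taken as immediate early had 13 of 17 tested genes called higher and 1 lower, with a median log2 fold change of 0.77. The list is mixed and also holds Btg1, Btg2 and Klf2. Whether its genes answer the same signals as Fos in these cells was not tested. Btg1, an antiproliferative gene, rose from 53.4 ± 14.0 to 172 ± 34.0 CPM (SD, n = 8 each; log2 fold change 1.68, edgeR adjusted p 1.51e-07). The zinc finger factors of the receptor response rose too, Egr1 from 14.8 ± 4.53 to 32.1 ± 4.92 CPM (1.12, edgeR adjusted p 3.05e-05), Egr2 by 1.60 (edgeR adjusted p 6.30e-05) and Egr3 by 1.54 (edgeR adjusted p 0.000107). The one that fell was Ier3 (log2 fold change -0.36, edgeR adjusted p 0.0302), named for being the only one. With RNA concentration (log2) in the model 8 of the 17 were called, and 7 within libraries 1 to 3. Fosb, Jun and Junb, which belong to the same class and are not in the list, were not called.

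Other leucine zipper factors moved both ways, with 2 of 15 tested genes higher and 3 lower (median -0.08). Bach2, a repressor that competes with AP-1 for its sites and restrains effector differentiation, rose from 4.21 ± 1.49 to 10.5 ± 2.31 CPM (SD, n = 8 each; log2 fold change 1.32, SE 0.181, edgeR adjusted p 1.00e-05). Nfil3 rose by 0.58 (edgeR adjusted p 0.0186), while the CRE-binding factors Atf1 and Creb1 fell by 0.24 (edgeR adjusted p 0.00102) and 0.21 (edgeR adjusted p 0.00686), close to the fall of Atf2. Without Tardbp library 8 the list had 3 called genes in place of 5. The other interferon regulatory factors did not follow Irf4. Of 8 tested, 5 were higher and 0 lower (median 0.30), with Irf7 at 0.66 (edgeR adjusted p 0.0196), Irf1 at 0.38 (edgeR adjusted p 6.62e-05, no overlap), Irf9 at 0.33 (edgeR adjusted p 0.0413) and Irf2 at 0.33 (edgeR adjusted p 7.98e-05). Without Tardbp library 7 or without Tardbp library 8, 2 of the 8 were called, and Irf9 was lost in 11 of the 16 fits that leave out a library. Irf8, the closest relative of Irf4, was at 48.9 and 58.8 CPM (log2 fold change 0.27, edgeR adjusted p 0.0770).

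Of the MAP kinase genes that lead to AP-1, 3 of 14 were higher and 5 lower (median 0.03), a share near the 46.7% of all genes. Map2k3, which activates p38, went from 274 ± 12.9 to 207 ± 17.6 CPM (SD, n = 8 each; log2 fold change -0.40, edgeR adjusted p 2.96e-06) without overlap, Map2k6 fell by 0.54 (edgeR adjusted p 0.00377) and Map2k1, the ERK activator, by 0.28 (edgeR adjusted p 0.00102), whereas Mapk11, a p38 gene, rose by 0.46 (edgeR adjusted p 0.00275). Among the phosphatases that switch these kinases off, 3 of 8 were higher and 1 lower, also near the 46.7% of all genes. Dusp2 rose by 1.12 (edgeR adjusted p 0.000819), Dusp6 by 0.65 (edgeR adjusted p 0.00151) and Dusp1 by 0.42 (edgeR adjusted p 0.0279), and Dusp4 fell by 0.64 (edgeR adjusted p 0.00303). A list of serum response factor, its partners of the ELK and MRTF families, which act upstream of Fos, and 3 MEF2 genes, related factors with sites of their own, had 4 of 9 genes higher and 0 lower, namely Elk4 (0.54, edgeR adjusted p 0.000103), Mrtfb (0.44, edgeR adjusted p 0.0254), Mef2d (0.31, edgeR adjusted p 0.0418) and Elk3 (0.24, edgeR adjusted p 0.00792). Mef2d was lost in 12 and Mrtfb and Dusp1 in 7 of the 16 fits that leave out a library, and 2 of these factors were called without Control library 4, Control library 6 or Tardbp library 6. Srf itself was at -0.26 (edgeR adjusted p 0.317).

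Of known targets of AP-1 or of BATF with IRF4, 6 of 15 were higher and 4 lower (median 0.26), beside 46.7% of all genes called in about equal numbers each way. Ifng rose from 8.68 ± 2.30 to 21.4 ± 4.29 CPM (SD, n = 8 each, log2 fold change 1.30, edgeR adjusted p 2.44e-06) and Cd69 from 26.8 ± 3.80 to 56.0 ± 7.85 CPM (1.06, edgeR adjusted p 1.75e-07), both without overlap. These are RNA levels. For the protein the study reports the other direction, with less IFNγ made by Tardbp knockout cells after restimulation with PMA and ionomycin. Il2ra, the interleukin-2 receptor alpha chain, fell from 145 ± 29.6 to 74.1 ± 15.7 CPM (log2 fold change -0.97, edgeR adjusted p 1.2e-05) without overlap, and Prdm1, which encodes BLIMP-1, from 14.0 ± 3.52 to 6.97 ± 3.01 CPM (-1.0, edgeR adjusted p 0.000937). Without Tardbp library 8, 6 of these targets were called in place of 10. Heat shock and stress genes had 9 of 10 lower and 0 higher (median -0.65). Among them were Hspa1b (-1.60, edgeR adjusted p 0.00277), Hspa1a (-1.58, edgeR adjusted p 0.00185), Hsph1 (-0.87, edgeR adjusted p 5.35e-06) and Hspd1 (-0.70, edgeR adjusted p 4.64e-07). The list also holds abundant genes such as Hspa8, with means of 3669 CPM in Control and 2507 CPM in Tardbp gRNA. Hspa1a and Hspa1b are near-identical copies, and their counts may be split between them. Handling stress was not measured, and its part in the heat shock and immediate early genes was not tested.

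**Figure D5:**
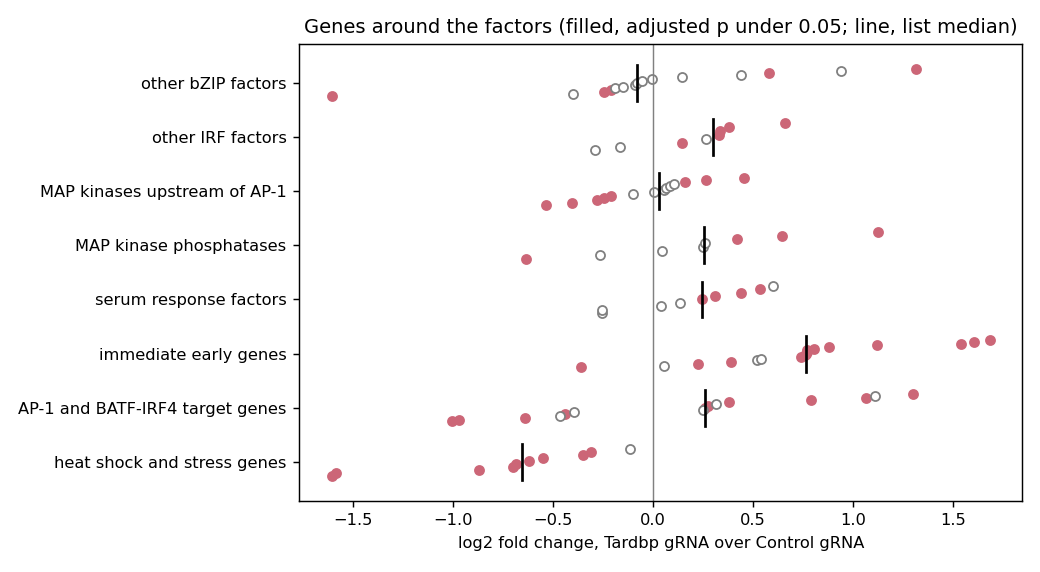
log2 fold change (x axis) of each tested gene in the 8 lists of genes around the factors; filled points passed an edgeR adjusted p of 0.05, open points did not, and the line is the list median. Immediate early genes lie mostly right of 0 with a median of 0.77 and heat shock genes left of it with a median of -0.65.

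Within groups no pair of members varied closely together, and some pairs were moderately correlated. Over the 16 libraries, with each group centred on its mean, the highest Pearson r among the 45 pairs was 0.58 for Jun with Batf3, and the lowest -0.60 for Fosl2 with Batf3. Batf3 was also at 0.527 with Batf and 0.521 with Junb, but at 0.117 with Jund. Fosl2 was at -0.595 with Junb and -0.532 with Batf. The genes most like Jund were Gnas (r = 0.976), Taf10 (0.976) and Klf2 (0.975), those most like Batf3 were Gstt1 (0.879), Bace2 (0.871) and Gldc (0.869), and Gldc itself had a log2 fold change of -2.19. Irf4 went with Nup62 (0.918) and Gm6793 (0.831), Atf2 with Brox (0.895), Trappc11 (0.887) and Ttll5 (0.880), and Fos with Ahsa2 (0.817), Rbm4 (0.800) and Mob2 (0.792). These correlations share libraries and their depth and are given as a description.

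Each library also carries a letter, M or F, under the heading sex in the deposited sheet of sample information, 5 F and 3 M in Control gRNA and 3 F and 5 M in Tardbp gRNA. Xist and the Y-linked Ddx3y were both detected in every library, at least 9.82 and 18.3 CPM, so the letter does not separate the libraries by these genes. In the test of an interaction between letter and group no member passed (0 of 10 called and 0 with an unadjusted p under 0.05 in edgeR), and over all genes 0% of 16650 were called and 662 had an unadjusted p under 0.05. With the letter as a covariate the same 5 members were called.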

How the data were processed

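RNA of 16 libraries, 8 per guide, was sequenced by the authors as paired reads from a SMART-Seq v4 kit that does not keep strand. Per the submitters' processing notes HISAT2 2.1.0, SAMtools 1.9 and StringTie 2.1.0 with mm10 were used, and R 4.0.5 with DESeq2 1.30.1. The gene and transcript tables deposited by the authors hold estimated counts, all of them whole, and the 26345 lines in each that name no annotated gene or transcript (0.0836 to 0.132% of counts) were left out of library sizes and tests. Another 10 columns of other samples in each were not used. The Psi values deposited by the authors are fractions from Whippet, 1 per node and group in columns headed A and B, read as Control and Tardbp gRNA (version not given in the sources used here), and its columns of the authors' own difference and probability were not used. The deposited lane annotation by the authors gives the count of read pairs and an RNA concentration score of unstated unit.

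Groups came from GEO's labels. The 10 members and all gene lists were chosen with earlier results of these data known, so they are descriptions and not independent evidence. Genes were filtered with filterByExpr (minimum count 10, minimum total 15, proportion 0.7), scaled by TMM and tested with the quasi-likelihood test of edgeR 4.0.16 (R 4.3.3) with Benjamini-Hochberg adjustment over all tested genes, and transcripts likewise. Transcript shares and rebuilt node inclusion were tested in limma 3.58.1 (adjusted p under 0.05 and a difference over 0.1, nodes with a mean count over 50). From each list up to 4 called genes with the widest fold changes and a mean log2 CPM of at least 1 were named. Ier3, Irf8, Srf and Hspa8 were named after their values were seen. No rule was set for naming single cell type markers, so those given were also chosen with their values known. For each called member the 3 genes most like it were to be named, and 1 of these is not reported here. The tests of genes, transcript shares and rebuilt node inclusion were tried on simulated data. The test of transcripts and that of nodes by annotated starts and ends were not. Nothing says that the transferred cells came from separate donors, so p-values measure the spread between libraries, and intervals of counting error are not given. Alternatives were DESeq2 1.42.0, limma-voom, other scalings, no filter, a replicate block, libraries 1 to 3 and 4 to 8 alone or as a block, RNA concentration and the letter as covariates and leaving out each library. Libraries with the same number were not tied to a shared mouse, and the correlation of their deviations ran from -0.0048 to 0.16 over the 8 numbers, so the numbers were not taken as pairs.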

Additional observations from a re-analysis of the deposited data

Results flagged for a closer look

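Irf4-201 in Control gRNA was the only one of 28 sets of 8 libraries, over the members and their called transcripts, in which a library lay apart from the others by Dixon's criterion. Control library 8 had 26.1 CPM and the next highest 20.1 CPM. Chance alone marks about 0.05 of such sets.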

How the results depend on the processing

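The count of called members was 5 with all libraries. It was 1 with RNA concentration in the model, 1 within libraries 1 to 3, 3 within libraries 4 to 8, 3 at an adjusted p under 0.01, and 4 to 6 when a library was left out. The count over all genes, 7783, was 2697 with RNA concentration and 1696 within libraries 1 to 3, and 7265 to 7734 when a library was left out. Fewer samples enter the subsets. With RNA concentration in the model the SE was larger for every member, at 0.196 against 0.0893 for Irf4 and 0.605 against 0.289 for Fos. RNA concentration did not overlap between the groups, so calls lost in that fit do not show smaller differences. The cause of the lower counts was not otherwise tested. Called member transcripts numbered 4 (4 to 5 with a library left out) and called member shares 0 (0 to 2). Of the Psi nodes, 6 differed by over 0.05 and 0 by over 0.2. No member reversed in any of its 27 settings. With the replicate block 5 members were called, Junb in place of Jund, and 7645 genes in all, and 3 of 8 Tardbp and 2 of 8 Control libraries correlated best with their own number. With RNA concentration in the model the lists had 1 (other leucine zipper factors), 2 (interferon regulatory factors), 2 (MAP kinases), 1 (phosphatases), 0 (serum response factors), 4 (targets) and 3 (heat shock genes) genes called. Within libraries 1 to 3 these were 1, 0, 3, 1, 0, 3 and 3. Fosb rests on 3 to 82 counts per library.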
